A study of Mus musculus with 6 samples.

Results

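The E proteins, their Id inhibitors and the Bhlhe and Zeb repressors were examined in sorted splenic marginal zone B cells, with and without a conditional deletion of CK2α. The family was defined by name as 10 genes, the E proteins Tcf3, Tcf4 and Tcf12, the inhibitors Id1, Id2 and Id3, and the repressors Bhlhe40, Bhlhe41, Zeb1 and Zeb2. Of these, 9 were found among the 14864 genes of the table, and Id1 was not measured. RNA came from 3 libraries labelled CK2α conditional knockout (cKO) and 3 labelled wild type (WT), all from spleens of C57BL/6 mice aged 8 weeks. What drove the deletion, which exons it removed, how the cells were gated and whether animals were pooled is not stated in the labels. No label ties a library to a mouse of its own, so p-values here cover only the variation among these libraries, some of which may be technical.

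E proteins are basic helix-loop-helix transcription factors that bind DNA as dimers at the E-box, a short motif written CANNTG, and that switch on B lineage genes. Id proteins carry the helix-loop-helix but no DNA-binding basic region, so a dimer of an Id protein and an E protein cannot bind, and the ratio of Id to E proteins sets how much E protein activity a cell has. In mice, lower E protein activity is known to favour the marginal zone fate of mature B cells over the follicular one. BHLHE40 and BHLHE41 are repressors of the same wide family that prefer the E-box CACGTG and act in the circadian clock, and BHLHE41 is needed for B-1a cells in mice. ZEB1 and ZEB2 are zinc finger repressors that recognise E-boxes of the form CAGGTG or CACCTG and so can compete with E proteins for sites.

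The promoter windows of Id2 and Bhlhe41, the members that passed the test below, and of Id3, the other measured inhibitor, are shown so that their E-boxes can be compared. The windows run from 250 bases before to 50 bases after the annotated start in RefSeq on GRCm38.p6, 5′ to 3′ on the strand of the gene. Windows of 6 of the 10 members were used. Those of Tcf4, Id1, Bhlhe40 and Zeb1 were not examined, which does not mean that these genes lack an entry. Capitals mark each CANNTG, a motif that reads the same on either strand. Id2 lies at chr12:25096043-25096342 on the minus strand, Bhlhe41 at chr6:145865371-145865670 on the minus strand and Id3 at chr4:136143572-136143871 on the plus strand.
Id2: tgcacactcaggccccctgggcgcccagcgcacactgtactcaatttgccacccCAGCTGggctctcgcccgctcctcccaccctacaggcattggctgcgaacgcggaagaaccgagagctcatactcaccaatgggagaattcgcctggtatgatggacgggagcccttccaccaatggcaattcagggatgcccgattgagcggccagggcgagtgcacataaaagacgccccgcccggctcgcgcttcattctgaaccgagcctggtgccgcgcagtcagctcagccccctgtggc
Bhlhe41: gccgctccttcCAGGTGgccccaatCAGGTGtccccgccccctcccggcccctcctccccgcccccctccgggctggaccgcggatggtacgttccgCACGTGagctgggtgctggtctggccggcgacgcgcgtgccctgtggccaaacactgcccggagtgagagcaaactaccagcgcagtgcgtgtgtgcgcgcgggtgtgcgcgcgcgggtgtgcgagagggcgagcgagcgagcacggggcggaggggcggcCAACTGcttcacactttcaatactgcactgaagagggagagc
Id3: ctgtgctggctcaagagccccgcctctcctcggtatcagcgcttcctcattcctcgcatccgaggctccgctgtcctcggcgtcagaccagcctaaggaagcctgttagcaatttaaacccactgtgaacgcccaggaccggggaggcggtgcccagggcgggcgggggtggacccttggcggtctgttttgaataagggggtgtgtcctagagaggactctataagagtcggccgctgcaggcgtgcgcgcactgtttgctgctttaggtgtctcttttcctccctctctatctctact

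The Bhlhe41 window held 4 E-boxes, among them 1 CACGTG that begins at position -153 and 2 copies of CAGGTG that begin at -239 and -225, where -1 is the base before the start. The Id2 window held 1 E-box, a CAGCTG that begins at -196, and the Id3 window held 0. Of 32851 RefSeq windows of this length, 72.3% held at least 1 CANNTG, 7.15% a CACGTG, 16.3% a CAGCTG and 20.2% a CAGGTG or its complement CACCTG. Among the other members with a window that was used, Tcf3 held 1 CANNTG, the 3 windows of Tcf12 held 1, 2 and 1, and the 4 windows of Zeb2 held 0 each. These are matches of letters and not measured binding.

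The libraries held 20054583 to 23503756 reads in cKO and 18778776 to 21067977 in WT, recovered from the deposited values, and a member had between 271 and 8331 reads in a library. All 5 general B cell marker genes were abundant and none of them passed the test. Of 9 marginal zone markers 5 rose and 0 fell in cKO, a share of 55.6%, and of 6 follicular markers 0 rose and 3 fell, a share of 50%, where 10.1% of all genes were called, 5.08% higher and 4.97% lower in cKO. cKO replicate 1 and WT replicate 2 stood apart in macrophage, monocyte and erythroid markers. Their summed levels of 8 macrophage and monocyte markers were 2599 in cKO replicate 1, against 1381 and 1424 in the other cKO libraries, and 2777 in WT replicate 2, against 1671 and 1701 in the other WT libraries. Their sums of 4 erythroid markers were 4043 in cKO replicate 1, against 1058 and 627 in the other cKO libraries, and 8645 in WT replicate 2, against 1123 and 533 in the other WT libraries. None of these 12 marker genes passed the test. The 3 measured of 8 T cell markers summed to 321 to 462 in cKO and 627 to 723 in WT, most of it Lck. Of these 3, Lck fell (-0.79, adjusted p = 0.00534, limma) and 0 rose, a share of 33.3%. Of 4 measured conventional dendritic cell markers, Zbtb46 rose (0.95, adjusted p = 0.0252, limma) and 0 fell, a share of 25%. The targeted gene was not lower: Csnk2a1, which encodes CK2α, stood at 4124, 3951 and 4060 normalised reads in the libraries labelled cKO and at 4069, 3861 and 3939 in those labelled WT. A count per gene cannot show a deleted exon, so directions below follow the labels. In bulk RNA, fewer cells of a type and less RNA per cell cannot be told apart.

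In the libraries labelled cKO, Id2 rose and Bhlhe41 fell, while the other 7 measured members did not pass the test. Tcf4 and Zeb2 lay just outside the threshold, both lower in cKO with no overlap between the groups. The test was limma over all 14855 genes with a mean of at least 10 normalised reads, with Benjamini-Hochberg adjustment and a threshold of 0.05. It called 10.1% of those genes, 5.08% as higher in cKO and 4.97% as lower, so 2 of 9 members, or 22.2%, is too small a count to set the family apart from other genes. At an unadjusted p under 0.05 there were 4 members, against 26.8% of all genes. In 4 of the 9 members all cKO values lay on one side of all WT values, which 31.6% of the genes tested also showed. On reads recovered from the deposited values, edgeR called the same 2 members, with 9.92% of all genes called, 5.27% higher and 4.64% lower in cKO. DESeq2 called 4 members, Tcf4 and Zeb2 being added, with 11.7% of all genes called, 5.90% higher and 5.75% lower in cKO. Differences are cKO minus WT, of log2(value + 1), and their median was -0.08 over the 9 members and -0.00086 over all genes tested, and the median size of the difference was 0.22 among the members and 0.16 among all genes.

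**Figure D1:**
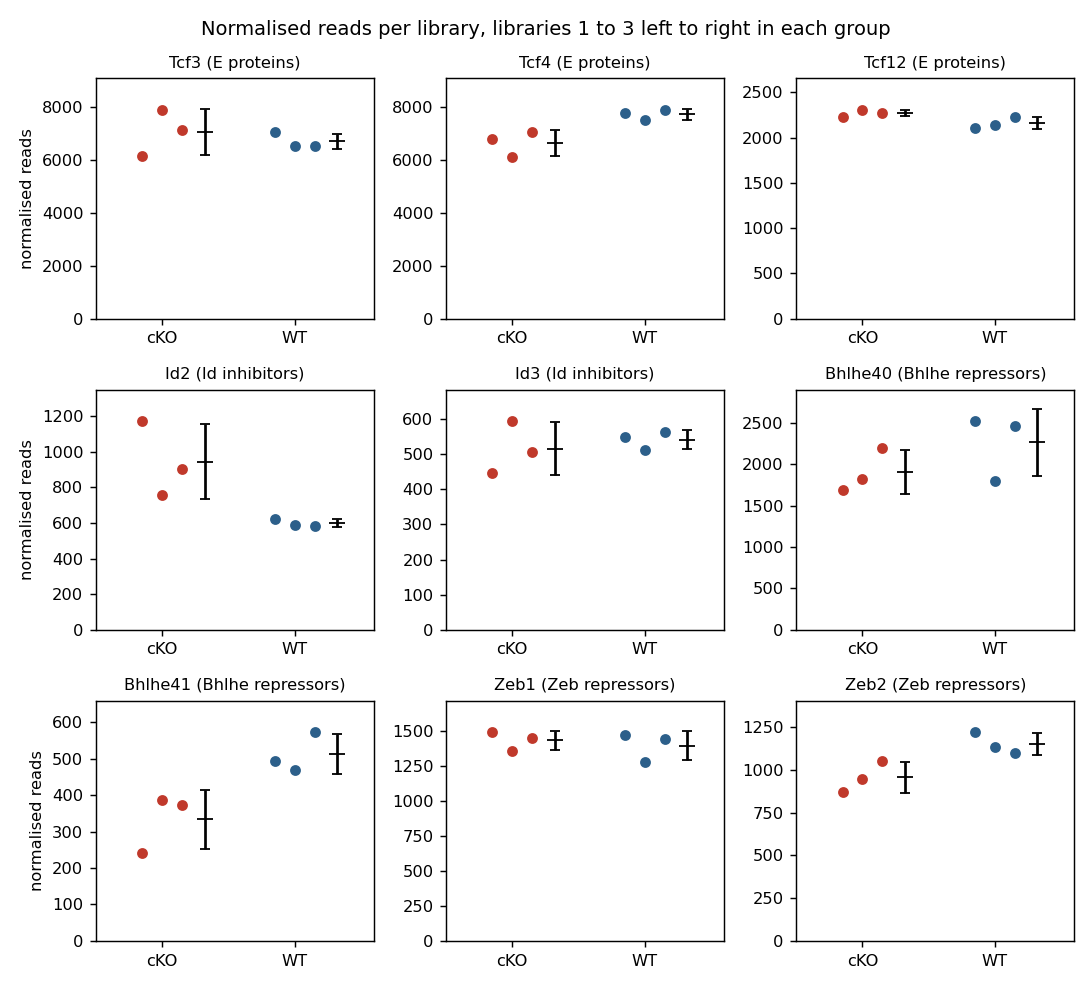
Normalised reads (vertical axis, linear from 0) of each measured member in the 3 cKO libraries (red, left) and the 3 WT libraries (blue, right); the black bar is the mean with its SD. The groups are apart for Tcf4, Id2, Bhlhe41 and Zeb2 and overlap for the other 5 genes.

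Among the activators, Tcf4 was lower in all libraries labelled cKO. It had 6784, 6110 and 7065 normalised reads in cKO libraries 1, 2 and 3, against 7768, 7492 and 7893 in WT libraries 1, 2 and 3. The highest cKO value stayed below the lowest WT value. The log2 difference was -0.22 ± 0.06 (± is the standard error), a ratio of 0.861 with a 95% interval of 0.783 to 0.946. The limma adjusted p was 0.050028, which did not pass. It ran from 0.0251 to 0.160 over 16 alternative settings and passed in 7 of them, among them DESeq2, but in none of the 6 fits that left out a library.

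Tcf3 and Tcf12 did not pass, and their differences were smaller than that of Tcf4. Tcf3, the E protein most closely tied to early B cell commitment, had 6163, 7895 and 7141 normalised reads in cKO and 7041, 6534 and 6528 in WT. Its cKO libraries held both its lowest and its highest value. The log2 difference was 0.07 ± 0.08 (adjusted p = 0.628, limma) with a 95% interval of -0.11 to 0.25, and it was -0.014 without cKO replicate 2. Tcf12, a broadly expressed E protein, had 2232, 2308 and 2277 in cKO against 2106, 2140 and 2232 in WT, with a log2 difference of 0.07 ± 0.05 (adjusted p = 0.404, limma) and an interval of -0.04 to 0.19. Tcf12 had the narrowest spread of the members in cKO, 1.69% of its mean where counting error alone gives 2.05%.

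The difference between the changes of Tcf4 and its paralogs was tested on the log2 ratio within each library. Tcf4 relative to Tcf12 differed by -0.29 between cKO and WT (95% interval -0.50 to -0.081), and Tcf4 relative to Tcf3 by -0.29 (interval -0.72 to 0.14). The groups did not overlap in either ratio, and the exact two-sided permutation test gave p = 0.1 for each, the smallest that 3 against 3 libraries allow (adjusted p = 0.15 over 6 pairs of paralogs). Tcf3 relative to Tcf12 gave -0.0038 (interval -0.30 to 0.29, p = 1 in the same exact permutation test). With this exact test no pair could reach the threshold. The 95% interval of Tcf4 relative to Tcf12, which rests on the spread within groups, did not include 0. That interval is not adjusted for the 6 pairs.

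Of the inhibitors, Id2 showed the increase. It had 1174, 758 and 903 normalised reads in cKO libraries 1, 2 and 3, against 624, 591 and 584 in WT libraries 1, 2 and 3. Each cKO library was above each WT library, and the cKO values were spread more widely. The mean was 945 ± 211 in cKO and 599.6 ± 21.2 in WT (SD, n = 3 each), a log2 difference of 0.63 ± 0.13 or a 1.55-fold increase with a 95% interval of 1.27 to 1.89 (adjusted p = 0.0148, limma). The spread in cKO was 22.3% of the mean, where counting error gives 3.17%, and in WT it was 3.53%, where counting error gives 4.17%.

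Id3, the inhibitor that antigen receptor signalling induces in lymphocytes, did not pass. It had 447, 595 and 508 normalised reads in cKO and 550, 511 and 564 in WT, and the cKO range covered all WT values. Its log2 difference was -0.08 ± 0.10 (adjusted p = 0.682, limma) with an interval of -0.31 to 0.15, and it was 0.022 without cKO replicate 1. Id2 was highest and Id3 lowest in cKO replicate 1, and within cKO the order of the libraries was opposite for these genes. The log2 ratio of Id2 to Id3 was 1.39, 0.35 and 0.83 in cKO against 0.18, 0.21 and 0.05 in WT, with no overlap. The difference of 0.71 had a 95% interval of -0.14 to 1.56 (exact permutation p = 0.1, adjusted p = 0.15).

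Leaving out a library lowered the number of genes called over the whole table in several fits. The call of Id2 did not hold in all of them. It was lost without WT replicate 1 (adjusted p = 0.0511) and without WT replicate 3 (0.0639), with log2 differences of 0.66 and 0.61, while without cKO replicate 1, its highest library, the difference was 0.46 and the call held (0.0152, in a range of 3.16e-05 to 0.194 over the 16 alternatives, limma throughout except for the edgeR and DESeq2 fits). A score of 6 follicular markers, centred over the libraries, was -0.35, 0.16 and -0.30 in cKO and 0.10, 0.21 and 0.17 in WT. Id2 was highest in the cKO libraries with the low scores, and with the score as a covariate its difference was 0.32 and did not pass (adjusted p = 0.194, limma). Of the 6 markers in the score, 3 fell in cKO, and only cKO replicate 2 among the cKO libraries had a score within the WT range. That fit can therefore hardly separate score from genotype, and fewer genes were called in it over the whole table. Markers of natural killer and innate lymphoid cells, which carry much Id2, summed to 340 to 433 normalised reads in cKO and 319 to 357 in WT over the 5 of 8 genes measured. Most of that sum was Prf1, and the other 4 genes summed to 78.7 to 81.5 in cKO and 83.3 to 89.0 in WT, lower in cKO. Ncr1, Nkg7 and Eomes were not measured, 0 of the 5 passed, and their part in the result was not tested.

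**Figure D2:**
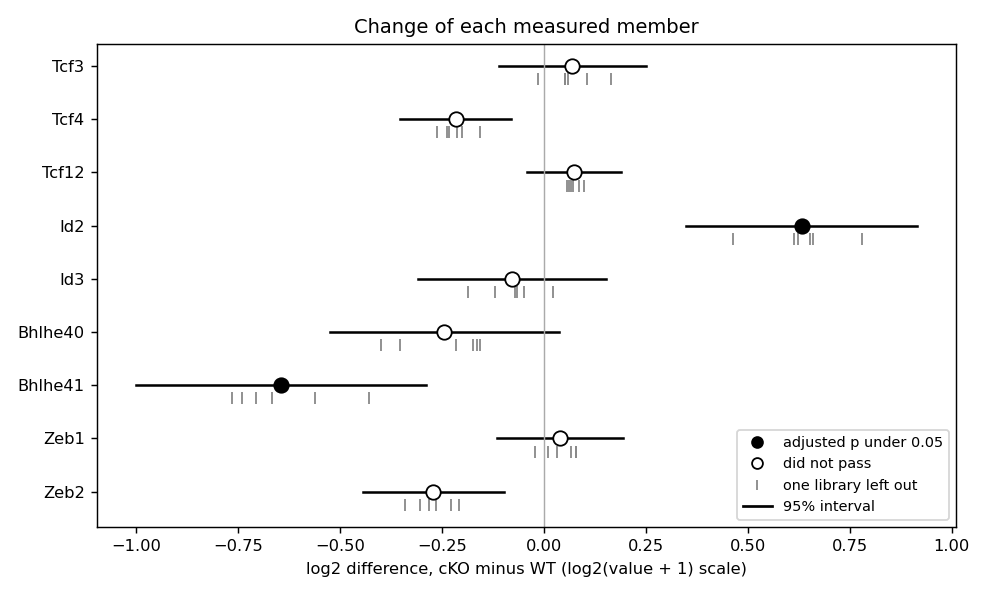
Difference of the mean log2(value + 1) of each measured member, cKO minus WT (horizontal axis), with its 95% interval (line) and the 6 values with a library left out (grey ticks). Id2 at 0.63 and Bhlhe41 at -0.64 passed the threshold (filled), and the intervals of Tcf4 and Zeb2 lay below 0 although their adjusted p did not pass.

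Set against the E proteins, the Id transcripts made up a larger share in the libraries labelled cKO. Levels of different genes were compared as normalised reads per kilobase of annotated exon. The sum of Id2 and Id3 was 38.1%, 27.6% and 30.1% of the sum of Tcf3, Tcf4 and Tcf12 in cKO libraries 1, 2 and 3, against 26.0%, 26.0% and 27.1% in WT libraries 1, 2 and 3. The groups did not overlap, but cKO replicate 2 was only just above the highest WT library. The means were 31.95% ± 5.48 in cKO and 26.4% ± 0.609 in WT (SD, n = 3 each), a ratio of 1.21, and the Id2 part was the higher one in cKO. Id2 alone was 25.1%, 13.4% and 17.0% in cKO and 11.8%, 12.0% and 11.7% in WT, whereas Id3 alone was 13.0%, 14.3% and 13.0% in cKO and 14.2%, 14.1% and 15.4% in WT. This ratio is a description of transcripts, with Id1 not included, and it got no test.

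**Figure D3:**
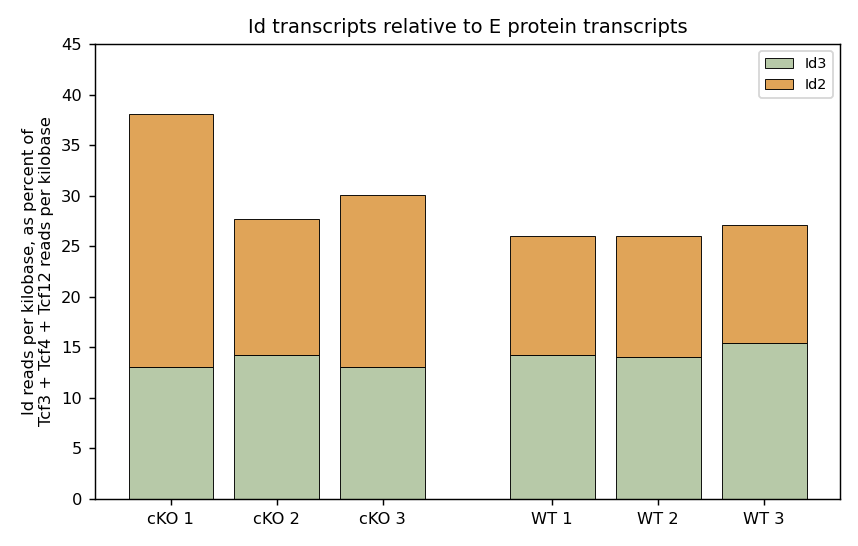
Reads per kilobase of Id3 (green) and Id2 (orange) as a percentage of the summed reads per kilobase of Tcf3, Tcf4 and Tcf12 (vertical axis, from 0) in each library. The stacked bars reach 38.1%, 27.6% and 30.1% in cKO and 26.0% to 27.1% in WT, and the Id2 part differs more than the Id3 part.

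The order of the levels depended on the length used. Per kilobase of all annotated exons, Tcf3 was the highest member, at 1749 ± 215 in cKO and 1659 ± 72.8 in WT, followed by Bhlhe40 at 404 ± 56.4 in cKO and 481 ± 85.1 in WT. Id2 ranked 3 in cKO, at 388 ± 86.6, and 5 in WT, at 246.0 ± 8.68, and it overlapped its neighbours Bhlhe40 and Id3 in cKO, while in WT it was apart from Tcf4 above and Tcf12 below. Id3 (288 ± 41.7 in cKO, 303 ± 15.4 in WT) and Tcf4 (243 ± 17.9 in cKO, 282 ± 7.49 in WT) overlapped in each group, as did Tcf12 and Zeb1. Bhlhe41 (49.6 ± 11.9 in cKO, 76.2 ± 8.09 in WT) and Zeb2 (47.9 ± 4.45 in cKO, 57.7 ± 3.14 in WT) were lowest, overlapping in cKO but not in WT. Tcf4 has 27382 exon bases over 62 annotated transcripts, whereas its longest transcript has 8577 bases. Per kilobase of the longest transcript Tcf4 ranked 2 in each group, at 776 ± 57.2 in cKO and 899.8 ± 23.9 in WT.

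Of the Bhlhe repressors, Bhlhe41 fell. It had 242, 386 and 373 normalised reads in cKO libraries 1, 2 and 3, against 494, 469 and 573 in WT libraries 1, 2 and 3. All cKO values lay below all WT values, and cKO replicate 1 was the lowest by a wide gap. The mean was 333 ± 79.7 in cKO and 512 ± 54.4 in WT (SD, n = 3 each), a log2 difference of -0.64 ± 0.16 or a ratio of 0.640 with a 95% interval of 0.50 to 0.819 (adjusted p = 0.0313, limma). Without cKO replicate 1 the difference was -0.43 and still passed (0.0378). The call was lost without cKO replicate 3 (0.0513), WT replicate 1 (0.0963) or WT replicate 3 (0.121). Adding the follicular score gave -0.39 and also ended the call (0.327), in a range of 0.0016 to 0.327 over the 16 alternatives. The limit given above for the fit with that score applies here too.

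Bhlhe40, the paralog that stimulation induces in many immune cells, was the more abundant of the pair and did not pass. It had 1687, 1816 and 2197 normalised reads in cKO and 2521, 1800 and 2462 in WT, so that WT replicate 2 fell within the cKO range. The log2 difference was -0.24 ± 0.13 (adjusted p = 0.245, limma) with an interval of -0.52 to 0.04. It moved both ways with the library left out. Without WT replicate 2 it was -0.40 and passed (adjusted p = 0.0421, limma), whereas leaving out cKO replicate 1, WT replicate 1 or WT replicate 3 gave -0.16, -0.16 and -0.17 (0.496, 0.573 and 0.514). The summed level of 13 measured immediate early genes, which stimulation and tissue dissociation induce, was 51841 to 53280 in cKO and 84836, 65926 and 81261 in WT libraries 1, 2 and 3, also lowest among WT in replicate 2. Of those 13 genes 7 fell and 0 rose, 53.8% called against 10.1% of all genes, and their part in the values of Bhlhe40 was not tested. Bhlhe41 relative to Bhlhe40 differed by -0.40 between the groups (95% interval -0.96 to 0.16, exact permutation p = 0.2, adjusted p = 0.24), so a different change of these paralogs was not shown.

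Bhlhe41 shares 1280 exon bases with Gm43909, an uncharacterised gene on the other strand. How the counting treated strand is not stated, so reads of the pair cannot be told apart. Gm43909, named because of this overlap, had 22.3, 31.3 and 35.1 normalised reads in cKO and 47.2, 36.9 and 40.1 in WT (log2 difference -0.49 ± 0.26, adjusted p = 0.244, limma). Of 7 markers of B-1 cells, in which Bhlhe41 is also high, Il5ra fell and 0 rose, and their summed level was 1007, 1472 and 1420 in cKO and 1467, 1590 and 1816 in WT. That order was set by Il5ra, at 394, 731 and 732 in cKO and 900.4, 986 and 1186 in WT. The other 6 markers summed to 613, 741 and 688 in cKO and 567, 604 and 630 in WT, and none passed. They went both ways: Spn, Zbtb32 and Itgam had positive log2 differences (0.51, 0.36 and 0.62). Cd5, Plscr1 and Ctla4 had negative ones (-0.13, -0.07 and -1.75), with Ctla4 at only 1.78 to 28.6 normalised reads in a library. The part of such cells in the result was not tested.

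Of the Zeb repressors, Zeb2 was lower in cKO and just missed the threshold. It had 873, 946 and 1049 normalised reads in cKO and 1221, 1134 and 1099 in WT, with the highest cKO library just below the lowest WT library. The log2 difference was -0.27 ± 0.08, a ratio of 0.829 with a 95% interval of 0.735 to 0.934 (adjusted p = 0.0524, limma). It ran from 0.0387 to 0.205 over the 16 alternatives and passed in 5 of them, among them DESeq2 (0.0405) and the fit without cKO replicate 3 (0.0491). Its antisense gene Zeb2os shares 653 exon bases with it and had 35.8 to 63.6 normalised reads in a library.

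Zeb1 did not pass either. It had 1490, 1357 and 1448 normalised reads in cKO and 1466, 1274 and 1440 in WT, overlapping throughout, with a log2 difference of 0.04 ± 0.07 (adjusted p = 0.759, limma) and an interval of -0.11 to 0.20. Without WT replicate 2 the difference was -0.022. Zeb1 shares 198 exon bases with Gm10125, which fell to 24.5 ± 5.15 normalised reads in cKO, against 47.9 ± 1.52 in WT (adjusted p = 0.0327, limma). Zeb2 relative to Zeb1 differed by -0.31 (95% interval -0.63 to 0.0051, exact permutation p = 0.1, adjusted p = 0.15), with no overlap of the groups. Tcf4 and Zeb2 are also high in plasmacytoid dendritic cells. The 5 of 7 markers of those cells that were measured summed to 1414 to 1545 normalised reads in cKO and 1139 to 1271 in WT, and 0 of the 5 passed. Pacsin1 and Bst2 made up most of that sum, and the other 3 (Siglech, Ccr9 and Ly6c2) summed to 82.0 to 108 in cKO and 78.0 to 103 in WT. Klk1 and Cox6a2 were not measured, and the part of such cells in these values was not tested.

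**Figure D4:**
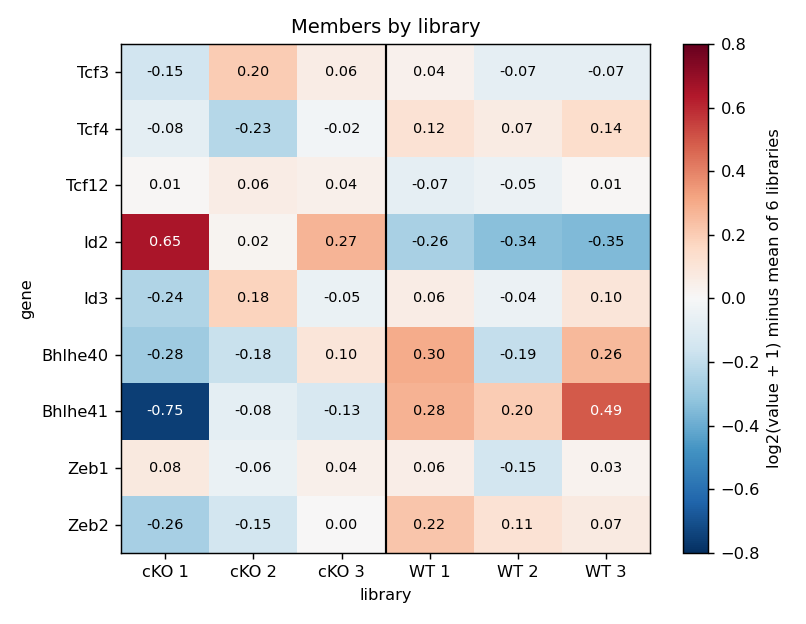
Log2(value + 1) of each member minus its mean over the 6 libraries (colour and printed number), with genes down the side and cKO libraries left of WT libraries. cKO replicate 1 holds the extreme values, 0.65 for Id2 and -0.75 for Bhlhe41, while WT libraries are on one side of 0 for Tcf4, Id2, Bhlhe41 and Zeb2.

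Across the libraries, cKO replicate 1, 1 of the 2 libraries with the high macrophage and erythroid markers, held the lowest value of all 6 libraries for 5 of the 9, namely Tcf3, Id3, Bhlhe40, Bhlhe41 and Zeb2, and the highest for Id2 and Zeb1. In WT, replicate 2, the other such library, was the lowest for 5 members, Tcf4, Id3, Bhlhe40, Bhlhe41 and Zeb1. With both left out, a fit chosen after seeing the data, Id2 gave 0.45 and Bhlhe41 -0.49, and both still passed (adjusted p = 0.0336 and 0.0328, limma). In that fit Tcf4 gave -0.25 and Zeb2 -0.22 and did not pass (0.0932 and 0.186), and Zeb1 gave -0.052. The part of the marker cells in the members' values was not tested otherwise. Within each family the share of 1 member per kilobase of all annotated exons differed between the groups by more for Id2 than for the others given. The size of these shares depends on the length used. In cKO, Tcf4 had 243 per kilobase of all exons and 776 per kilobase of its longest transcript. Id2 made up 57.0% ± 8.78 of the measured Id transcripts in cKO and 44.9% ± 1.47 in WT, Bhlhe41 10.9% ± 1.93 of the Bhlhe transcripts in cKO and 13.8% ± 1.69 in WT, Zeb2 25.6% ± 2.13 of the Zeb transcripts in cKO and 29.9% ± 1.61 in WT, and Tcf4 11.5% ± 1.70 of the E protein transcripts in cKO and 13.6% ± 0.482 in WT (SD, n = 3 each).

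Cofactors of the E proteins changed in both directions. Of 12 measured, 1 rose and 2 fell, 25% against the 10.1% of all genes, with a median log2 difference of -0.13. These 12 include Ctbp1 and Ctbp2, named below as corepressor genes of the ZEB proteins. Lmo2, which bridges LDB1 to dimers of E proteins with TAL1 or LYL1, fell to 1755 ± 283 normalised reads in cKO, against 2671 ± 138 in WT (-0.62 ± 0.10, adjusted p = 0.00442, limma), and was called in every alternative. Cbfa2t3, a corepressor of the ETO family that E proteins recruit, rose to 3771 ± 369 in cKO, against 2686 ± 452 in WT (0.50 ± 0.11, adjusted p = 0.0196, limma). Ssbp2, a partner of LDB1, fell to 29.7 ± 13.3 in cKO, against 82.7 ± 30.5 in WT (-1.46 ± 0.35, adjusted p = 0.0272, limma). Cbfa2t3 lost its call without cKO replicate 3 (0.0710) or WT replicate 3 (0.0771), and Ssbp2 without cKO replicate 1 or 3 (0.0641 and 0.0869) or WT replicate 1 or 3 (0.112 and 0.115). Of the corepressor genes of the ZEB proteins, Ctbp1 had 4802, 5021 and 4882 normalised reads in cKO and 4633, 4902 and 4701 in WT. Ctbp2 had 26.7, 16.1 and 20.6 in cKO and 15.4, 14.8 and 22.5 in WT. Neither passed (adjusted p = 0.597 for Ctbp1 and 0.662 for Ctbp2, limma).

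Genes that E proteins are known to activate in B cells changed in both directions. Of 19 measured, 1 rose and 3 fell, 21.1% against 10.1% of all genes, with a median of -0.02. Foxo1, a transcription factor of B cell development, fell by 0.32 on the log2 scale, the chemokine receptor gene Cxcr4 by 0.52 and Irf4, a regulator of plasma cell and germinal centre fates, by 0.71 (adjusted p = 0.0172, 0.0232 and 0.0237, limma). Vpreb3, a protein that binds nascent immunoglobulin light chains, rose by 0.51 (0.0328). The lineage factors Ebf1 and Pax5 gave 0.04 and 0.02 and did not pass (adjusted p = 0.782 and 0.852, limma). Foxo1 lost its call without cKO replicate 3 or WT replicate 3, Cxcr4 without cKO replicate 1 or 3 or WT replicate 1 or 3, Irf4 without cKO replicate 1 or WT replicate 1 or 3, and Vpreb3 without cKO replicate 2 or 3 or WT replicate 1 or 2 (adjusted p between 0.0547 and 0.104 in these fits).

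Among 15 measured genes of the signals that induce Id genes, Egr3 fell and 0 rose, 6.67% against 10.1% of all genes, with a median of -0.07. The list also holds the inhibitors Smad6, Smad7, Smurf1 and Smurf2 (0.62, 0.18, -0.24 and 0.15), none of which passed. Its median therefore does not give a direction of the signals. Egr3, an early growth response factor, had 483, 715 and 620 normalised reads in cKO and 1097, 746 and 1225 in WT (-0.74 ± 0.18, adjusted p = 0.0253, limma). Its WT replicate 2 was close to the highest cKO library, and the call was lost without cKO replicate 1 or 3 (0.0590 and 0.0692) or WT replicate 1 or 3 (0.110 and 0.104). Smad1, Smad4 and Smad5, which carry BMP signals to Id promoters, gave -0.33, -0.07 and -0.12 and did not pass (adjusted p = 0.36, 0.466 and 0.235, limma). Bmpr1a and Acvr1 were not measured.

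Clock genes, several of which carry E-boxes that BHLHE40 and BHLHE41 repress, had the largest share of calls of the 6 pathway lists, below those of the marginal zone, follicular and immediate early genes given above. Of 13 measured, 1 rose and 4 fell, 38.5% against 10.1% of all genes, with a median of -0.19. Per3, a member of the period family, had 324, 294 and 362 normalised reads in cKO and 772, 567 and 719 in WT (-1.06 ± 0.12, adjusted p = 0.000756, limma). Nr1d2, a nuclear receptor that represses Arntl, had 933, 814 and 926 in cKO and 1460, 1339 and 1472 in WT (-0.68 ± 0.07, adjusted p = 0.000505, limma). Both were called in every alternative, with groups far apart. Per1 fell by 0.57 on the log2 scale and Ciart, a repressor of the CLOCK complex, by 0.53, while Arntl, the partner of CLOCK, rose by 0.38 (adjusted p = 0.00877, 0.0431 and 0.0201, limma). The hours at which spleens were taken are not stated in the labels. Per1 was called whichever library was left out, Arntl lost its call without cKO replicate 1 or 3 or WT replicate 3, and Ciart lost its call in all 6 such fits except that without WT replicate 2.

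Genes named as ZEB targets in other tissues were few. Of 6 measured, 0 rose and 2 fell, 33.3% against 10.1% of all genes, with a median of -0.50. Cd69, an early activation marker, fell to 3794 ± 855 normalised reads in cKO, against 6524 ± 563 in WT (-0.80 ± 0.13, adjusted p = 0.00462, limma) and was called in every alternative. Bcl6, the germinal centre repressor, fell by 0.97 on the log2 scale (adjusted p = 0.0214, limma), a call lost without cKO replicate 1 or 3 or WT replicate 1 or 3 (0.050045 to 0.0899). Cdh1 and Il2 were not measured.

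Of 17 other genes of the helix-loop-helix class, 3 rose and 1 fell, 23.5% against 10.1% of all genes, with a median of -0.03. Heyl, a repressor induced by Notch, had 87.4, 86.2 and 118 normalised reads in cKO and 26.4, 16.9 and 14.7 in WT (2.30 ± 0.26, adjusted p = 0.000756, limma). Epas1, a hypoxia factor, rose to 29.3 ± 8.75 in cKO, against 9.75 ± 2.35 in WT, and Mitf, a factor of melanocytes and lysosome genes, fell to 15.1 ± 3.42 in cKO, against 42.0 ± 6.84 in WT (adjusted p = 0.0230 and 0.0133, limma). Tfeb, its relative that drives lysosome genes, rose by 0.19 on the log2 scale (adjusted p = 0.0456, limma). Epas1 lost its call without cKO replicate 3 or WT replicate 2 or 3, Mitf without WT replicate 3, and Tfeb whichever library was left out. Lyl1, which dimerises with E proteins, had 2690 to 3279 in cKO and 2492 to 3107 in WT and did not pass (adjusted p = 0.731, limma).

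With the follicular score as a covariate, Heyl, Lmo2, Vpreb3, Per3, Nr1d2 and Cd69 were still called. The other 13 calls in these lists were lost, in a fit that has the limit given above. Of those 13, the difference was smaller than without the score for 9, such as Cxcr4 at -0.24, and as large or larger for 4, namely Irf4 at -0.86, Per1 at -0.60, Ciart at -0.58 and Tfeb at 0.20 (adjusted p = 0.0688, 0.0550, 0.161 and 0.193, limma). Leaving out both cKO replicate 1 and WT replicate 2 ended the calls of Mitf, Epas1, Tfeb, Cbfa2t3, Foxo1 and Arntl (adjusted p between 0.0589 and 0.0961, limma). Robust moderation ended the calls of Cbfa2t3, Cxcr4, Irf4, Egr3 and Bcl6 (adjusted p = 0.0533, 0.0955, 0.160, 0.135 and 0.138, limma), DESeq2 that of Cxcr4 (0.0577), and scaling without immunoglobulin genes that of Tfeb (0.0645, limma). Mean values under 100 kept Heyl, Epas1, Mitf and Ssbp2 out of the fit with the higher minimum.

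**Figure D5:**
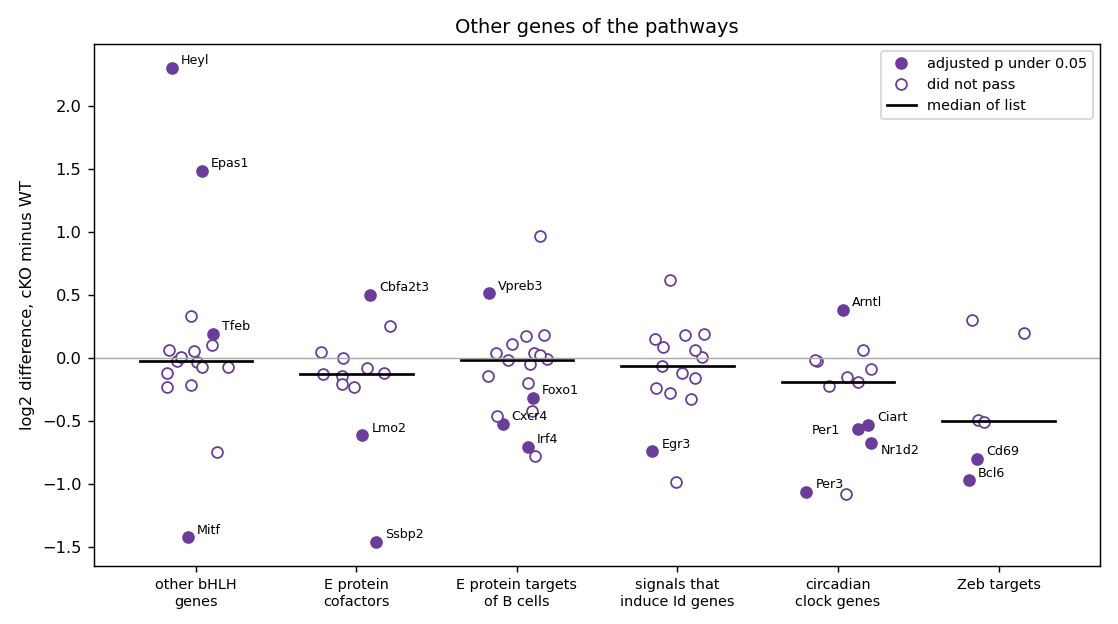
Log2 difference, cKO minus WT (vertical axis), of each measured gene in 6 lists; filled points passed the threshold and are named, open points did not, and the bar is the median of the list. The clock genes Per3, Nr1d2, Per1 and Ciart lie below 0 and Arntl above it, whereas the list of E protein targets has its median at -0.02.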

How the data were processed

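RNA-seq libraries of sorted marginal zone B cells were compared, 3 labelled cKO and 3 labelled WT. The submitters' processing notes name STAR 2.5.2b, Trimmomatic 0.36, bcl2fastq 2.17 and build mm9. For counting, annotation, strand and normalization no tool or setting is named. Values were deposited as a normalised signal, a read count per gene over 1 factor per library: 100.0% came out as whole reads within 0.02 of a read. The lowest sum of reads of any gene over the libraries was 61. Symbols were taken from GENCODE M21, with 14808 of 14864 identifiers matched.

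The main test was limma 3.58.1 (R 4.3.3; trend) on log2(deposited value + 1), genotype only, for genes with a mean of at least 10, two-sided, Benjamini-Hochberg over 14855 genes. A fold on that scale understates changes of low genes. Alternatives were edgeR 4.0.16 and DESeq2 1.42.0 on recovered reads, other pseudocounts, filters and scalings, robust moderation, a replicate block, a follicular score and leaving out each library. Leaving out both libraries with high macrophage and erythroid markers was added after seeing the data. The limma, edgeR and DESeq2 fits were tried on simulated counts with the same extra spread for all genes and no differences in cell content between libraries. That trial checks the code and says nothing about the calls here. Paralog pairs were 6, since Id1 was not measured. Genes named are all members, up to 6 called genes of each of 6 pathway lists with the smallest adjusted p, Csnk2a1, and genes that overlap a member; members of these lists that did not pass, and marker genes, were named after their values were seen. Members and lists were chosen with earlier results of these data known. Counts limit precision, and the counting errors given cover counting only.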

Additional observations from a re-analysis of the deposited data

How the results depend on the processing

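Leaving out each library in turn moved the counts of called genes to between 497 and 1730 (main 1494), those higher in cKO to between 247 and 787 (755) and those lower to between 221 and 943 (739), with 927 called without cKO replicate 1, 531 without cKO replicate 3, 510 without WT replicate 1 and 497 without WT replicate 3. Members called ranged from 0 to 3 (main 2), other helix-loop-helix genes from 1 to 3 (4), E protein cofactors from 1 to 3 (3), E protein targets from 1 to 3 (4), Id-inducing signals from 0 to 4 (1), clock genes from 3 to 5 (5) and Zeb targets from 1 to 3 (2). With both cKO replicate 1 and WT replicate 2 left out, an alternative chosen after seeing the data, 876 genes were called, 432 higher and 444 lower in cKO, with 2 members, 2 other helix-loop-helix genes and 2 Id-inducing genes, and Zeb1 gave -0.052, the reverse of its direction. Members called numbered 0 without WT replicate 1 or WT replicate 3. With the follicular score as a covariate, 325 genes were called, 148 higher and 177 lower in cKO, with 1 member (Tcf4, adjusted p = 0.0370, limma), 1 other helix-loop-helix gene, 1 cofactor, 1 E protein target, 0 Id-inducing genes, 2 clock genes and 1 Zeb target. That fit gave 0.13 for Id3 and -0.055 for Zeb1, the reverse of their directions. Members called were 4 with DESeq2, a mean of at least 100, scaling without immunoglobulin genes or robust moderation. In each case Tcf4 and Zeb2 passed besides Id2 and Bhlhe41. DESeq2 called 11.7% of all genes. The shares of all genes in the other fits just named are not given here, so their counts are not read as a result about the family. With a mean of at least 100 there was 1 other helix-loop-helix gene, by construction of the filter. Robust moderation gave 0 Id-inducing genes and 1 Zeb target, and edgeR 2 Id-inducing genes. Over the fits with a library left out, Tcf3 ranged from -0.014 to 0.16, Id3 from -0.18 to 0.022 and Zeb1 from -0.022 to 0.079, each reversed in 1 fit, and the difference of Tcf3 and Tcf12 ranged from -0.076 to 0.078, reversing without cKO replicate 1 (0.078) or WT replicate 1 (0.050). The cause was not tested. The ratio of Id to E protein transcripts was 25.2% in cKO and 20.7% in WT per longest transcript, 44.3% in cKO and 34.4% in WT per coding length, and 9.18% in cKO and 6.88% in WT with no division by length. Deviations of same-numbered libraries had correlations of -0.075, -0.020 and 0.147, within the range of -0.207 to 0.196 for libraries of unlike number. Such correlations, from 3 libraries per group, cannot decide whether the numbers pair the libraries. The replicate block gave 1551 called genes, 3 members with Tcf4 added (adjusted p = 0.0324, limma), 2 Id-inducing genes and 3 Zeb targets.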
